A study of Mus musculus with 8 samples.

Results

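A set of 10 genes that code for S100 proteins, annexins, galectins and their cytoskeletal companions were followed through CD8 T cells of the mouse: S100a4, S100a6, S100a10, S100a11, Anxa1, Anxa2, Lgals1, Lgals3, Capg and Vim. They were taken by symbol, and all 10 were found among the 32285 genes of the deposited count matrices and passed the filter on low counts in every comparison. Activated CD8 T cells of 3 donor mice had been grown together with bone marrow stromal cells (BMSCs) whose mitochondria carried a stable dsRed label. T cells with dsRed (MitoPositive) were sorted apart from T cells without it (MitoNegative). Both kinds were sequenced directly from the culture (d0), or were injected into B6 mice bearing B16KVP tumors and recovered from spleen and tumor by flow cytometry at d7. B16 is a mouse melanoma line. This gave 6 groups with 1 hashtagged sample per donor, 18 in all: culture, spleen and tumor, each as MitoPositive and MitoNegative. After transfer the 2 names describe the state at sorting before transfer. Every T cell, MitoNegative ones included, had been activated and had shared the culture with BMSCs. In the deposited hashtag list each donor's 2 arms have different host codes at d7, so host mouse and arm cannot be told apart, while both organs of an arm carry the same host code. The strain and age of the donor mice and any marker that told transferred from host cells are not given in the sources used here.

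S100 proteins are small proteins. Most of them change shape when they bind calcium and then dock onto other proteins, many of these part of the cell cortex. Annexins bind acidic phospholipids of membranes in a calcium-dependent way; Anxa2 joins a pair of S100a10 molecules in a complex at the inner face of the plasma membrane, and Anxa1 is a known partner of S100a11. Galectins bind galactose-containing sugars on glycoproteins, Lgals1 as a dimer and Lgals3 as a chimeric protein that can form larger assemblies. Capg caps the barbed ends of actin filaments, and Vim is the intermediate filament protein vimentin. In T cells these genes are known as a set that is low in naive cells and rises with activation, effector differentiation and memory.

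Of the 10 genes, 4 lie on mouse chromosome 3, in the S100 gene cluster. On GRCm38 S100a4 spans chr3:90603771-90606045 and S100a6 spans chr3:90612882-90624181, both on the plus strand. Only S100a5 lies between them, 2.5 kb from S100a4 and 1.1 kb from S100a6. S100a11 (chr3:93520488-93526287) and S100a10 (chr3:93555080-93564643) are plus-strand neighbours 28.8 kb apart, 2824.8 kb beyond S100a9. Near neighbours differed widely in level: S100a5 and S100a3, which flank S100a4, had group means of at most 0.67 and 0.889 UMIs per 1000000 UMIs of a sample (CPM), and S100a8 and S100a9, the neutrophil genes of the cluster, had at most 1.49 CPM. That last value depends on a filter, as d7 cells grouped by their S100a9 and S100a8 RNA were left out of the sums. The other 6 genes are spread over the genome, Vim at chr2:13573927-13582826, Capg at chr6:72544391-72562983, Anxa2 at chr9:69453620-69491795, Lgals3 at chr14:47367751-47386160, Lgals1 at chr15:78926725-78930465 and Anxa1, on the minus strand, at chr19:20373428-20390944.

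The promoters of 4 genes are shown because these genes moved between groups in different ways, as described further on. They are the 250 bases upstream of the start given by RefSeq on GRCm38.p6, all on the plus strand, for S100a4 (chr3:90603520-90603769), S100a6 (chr3:90612644-90612893), S100a11 (chr3:93520246-93520495) and Anxa2 (chr9:69453433-69453682). Capitals mark matches to 3 motifs searched on both strands: AP-1 (TGANTCA), RUNX (TGTGGT, which reads ACCACA on the other strand) and the TATA box (TATAAA).
S100a4: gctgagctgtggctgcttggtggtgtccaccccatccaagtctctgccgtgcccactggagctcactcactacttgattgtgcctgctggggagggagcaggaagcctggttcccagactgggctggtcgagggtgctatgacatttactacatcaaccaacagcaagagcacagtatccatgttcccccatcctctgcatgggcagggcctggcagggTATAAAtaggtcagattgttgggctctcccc
S100a6: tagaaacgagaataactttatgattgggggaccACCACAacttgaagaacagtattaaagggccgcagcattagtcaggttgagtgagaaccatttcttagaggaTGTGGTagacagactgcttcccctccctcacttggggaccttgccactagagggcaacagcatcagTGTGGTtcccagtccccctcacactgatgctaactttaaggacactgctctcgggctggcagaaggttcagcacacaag
S100a11: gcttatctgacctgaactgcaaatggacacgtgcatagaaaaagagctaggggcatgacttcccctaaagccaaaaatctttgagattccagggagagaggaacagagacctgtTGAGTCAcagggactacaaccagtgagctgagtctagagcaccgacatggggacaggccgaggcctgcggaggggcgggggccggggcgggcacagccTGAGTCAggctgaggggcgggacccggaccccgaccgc
Anxa2: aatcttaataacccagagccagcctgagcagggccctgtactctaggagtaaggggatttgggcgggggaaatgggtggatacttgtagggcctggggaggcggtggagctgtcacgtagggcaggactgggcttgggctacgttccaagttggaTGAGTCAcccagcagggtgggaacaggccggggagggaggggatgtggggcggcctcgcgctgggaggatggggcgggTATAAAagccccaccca
RefSeq promoters were matched for 8 of the 10 genes, not for S100a10 and Lgals1. S100a4 held a TATA box at position -31 from the start and neither of the other 2 motifs. S100a6 held 3 RUNX matches, at -217, -145 and -79. S100a11 held 2 AP-1 matches, at -136 and -38, and Anxa2 held 1, at -95, besides a TATA box. Over all 32851 promoters of the same length, 6.75% held the AP-1 letters, 14.05% the RUNX letters and 12.4% the TATA letters, against 2, 1 and 4 of the 8 promoters here (the TATA letters in Vim, S100a4, Anxa2 and Anxa1). A further 3 motifs were searched in the same way. The GC box (GGGCGG) was present in 3 of 8 promoters and in 32.7% of all, the CACCC box (CCACNCCC) in 1 of 8 and in 15.9%, and the NF-kB motif in 0 of 8 and in 0.356%. These are letter matches, and binding was not measured.

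The 18 samples held 16376 cells, from 30 to 3423 per sample, with 323344 to 26592848 UMIs per sample and a median of 5294 to 21894 UMIs per cell. The smallest samples need care: the MitoPositive spleen sample of donor 3 held 49 cells and the MitoNegative tumor sample of donor 1 held 30 cells. The 6 culture samples form 1 library and each donor's d7 samples another, and libraries shared 1 to 8 barcodes. The T cell markers Cd3d, Cd3e, Cd3g, Cd8a, Cd8b1, Cd2 and Lck summed to 5580 to 5982 CPM in the culture, 4922 to 5661 CPM in the spleen and 2845 to 3735 CPM in the tumor, with none at 0 in any sample. The labels disagree on which culture hashtags were MitoPositive. Odd numbers are MitoPositive in the series design and the deposited hashtag list, which were used, and numbers 1 to 3 are MitoPositive in the extraction protocol. Under that second map no gene at all was called in culture, so none of the culture differences given below was.

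Together the 10 genes took up 0.454 to 0.641% of all UMIs in MitoPositive and 0.283 to 0.407% in MitoNegative culture samples. In the spleen the shares were 0.897 to 1.19% and 1.29 to 1.65%, and in the tumor 0.697 to 0.770% and 0.605 to 0.781%. The order of the arms was thus MitoPositive above MitoNegative in culture and the reverse in the spleen, without overlap in either place, and the ranges overlapped in the tumor. A summed level rises with more cells that express a gene or with more RNA per cell, and sums per sample cannot tell these apart.

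**Figure D1:**
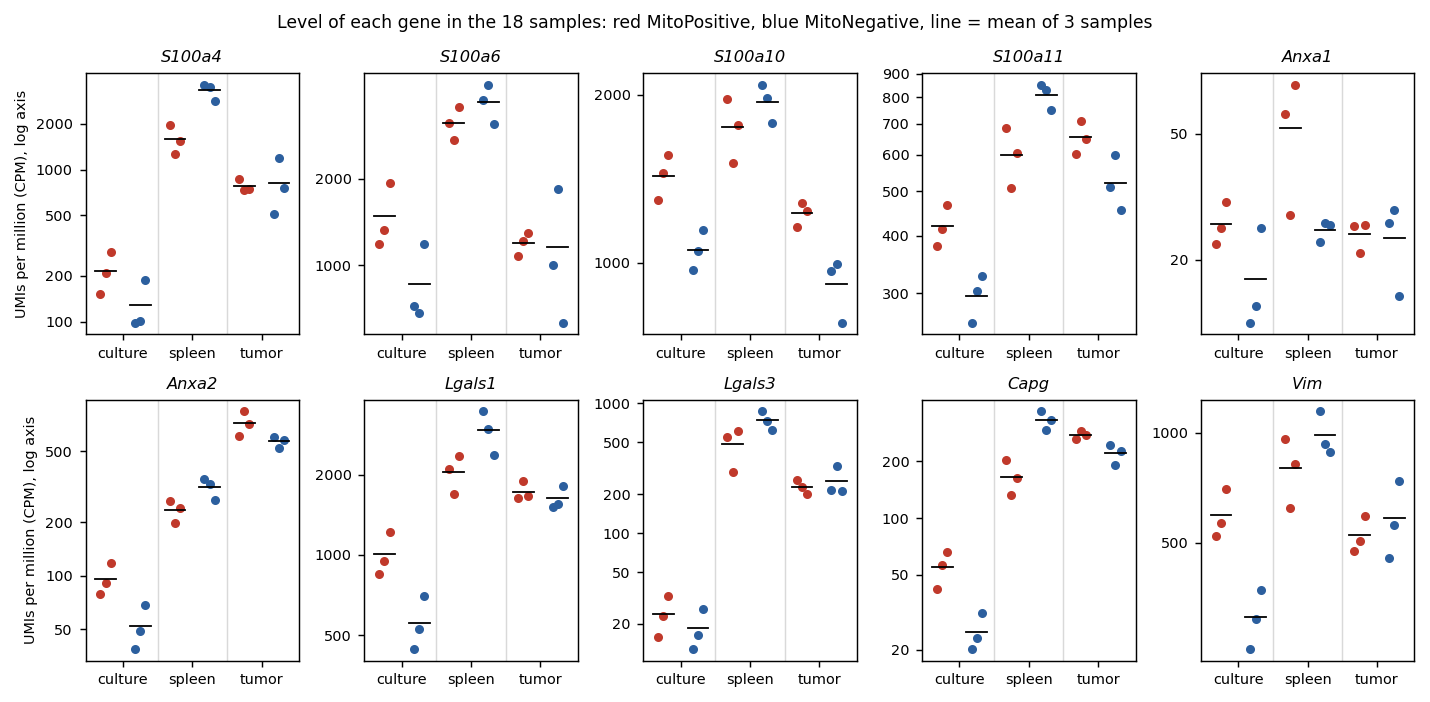
Level of the 10 genes in each of the 18 samples, in CPM on a log axis that differs between panels. Points are samples in the order of donors 1 to 3 (red MitoPositive, blue MitoNegative) and lines are means of 3 samples; in culture the red points sit higher for most genes, in the spleen the blue ones do, except for Anxa1, and S100a4 and Lgals3 are lowest in culture.

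The first comparison asked whether T cells that carried BMSC mitochondria differed directly after the culture. Of the 10 genes, 7 were higher in MitoPositive cells, by 1.40-fold to 2.27-fold, and none was lower (edgeR's quasi-likelihood test, Benjamini-Hochberg adjusted over 11436 genes, threshold 0.05). Over all genes tested, 6.03% were called higher, 3.23% lower and 9.26% in either direction. The median log2 fold change of the 10 genes was 0.81, against -0.003 over all genes. Capg, the actin capping protein, had the largest difference. Its levels for donors 1, 2 and 3 were 42.2, 56.2 and 66.0 CPM in MitoPositive and 20.3, 23.0 and 31.5 CPM in MitoNegative samples, with no overlap. The log2 fold change was 1.18 with a standard error (SE) of 0.18 (edgeR adjusted p = 0.0013). Vimentin, the filament protein, was next. Vim stood at 520, 565 and 701 CPM against 256, 310 and 371 CPM, a log2 fold change of 0.97 (SE 0.14, edgeR adjusted p = 0.0010), again without overlap.

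Of the annexins, Anxa2 was higher at 79.1, 91.6 and 118 CPM in MitoPositive against 38.9, 49.3 and 68.7 CPM in MitoNegative culture samples (log2 fold change 0.93, SE 0.18, edgeR adjusted p = 0.0066). Anxa1, a phospholipid-binding protein known for its anti-inflammatory role, was at 22.4, 25.2 and 30.4 CPM against 12.7, 14.2 and 25.2 CPM and did not pass the test (edgeR adjusted p = 0.087). Anxa2 groups did not overlap, while the highest MitoNegative sample for Anxa1 reached the middle MitoPositive one. Of the galectins, Lgals1 stood at 847, 946 and 1224 CPM against 444, 528 and 701 CPM, a log2 fold change of 0.89 (SE 0.16, edgeR adjusted p = 0.0042). Lgals3 was low in both arms, at 15.7, 23.1 and 32.8 CPM against 12.8, 16.3 and 26.2 CPM, and was not called (edgeR adjusted p = 0.36). In this fit without a donor block only Lgals1 was called, while with the donor as a block Lgals3 was called too, as given below. Whether the 2 galectins differed from each other was not tested.

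All 4 S100 genes had higher means in MitoPositive culture samples, and 3 passed the test. S100a10, the partner of Anxa2, was at 1294, 1447 and 1558 CPM against 969, 1050 and 1143 CPM (log2 fold change 0.49, SE 0.09, edgeR adjusted p = 0.0060). S100a11 was at 380, 414 and 466 CPM against 259, 303 and 328 CPM (log2 fold change 0.55, SE 0.10, edgeR adjusted p = 0.0057). Neither gene's groups overlapped. S100a6 was at 1185, 1329 and 1926 CPM against 721, 683 and 1186 CPM (log2 fold change 0.82, SE 0.21, edgeR adjusted p = 0.026), where the MitoNegative sample of donor 3 lay level with the MitoPositive sample of donor 1. S100a4, known for its role in cell motility, was at 153, 210 and 287 CPM against 98.5, 101.1 and 188 CPM and missed the threshold (log2 fold change 0.79, SE 0.24, edgeR adjusted p = 0.060). Donor 3 was the highest of its arm for each of the 10 genes in both arms of the culture. With the donor as a block, all 10 genes were called, S100a4, Anxa1 and Lgals3 included (edgeR adjusted p = 1.0e-10, 1.4e-04 and 0.0045). Of all genes 2295 were called with the block, against 1059 without it.

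Related genes were read from lists. Of the other S100 genes 1 of 3 tested was called higher, of the other annexins 2 of 5 (Anxa6, log2 fold change 0.36, and Anxa4, 1.04) and of the other galectins 0 of 5. Among the genes of actin filaments and the cell cortex 4 of 19 were called, all higher: Tagln2 (0.59), Actg1 (0.46), Actb (0.37) and Coro1a (0.31). Cd44, a glycoprotein bound by galectins, was higher (0.74), and Cd7, a glycoprotein through which Lgals1 is known to act on T cells, was lower (log2 fold change -0.98). Ahnak, a large scaffold that binds the complex of S100a10 and Anxa2, was higher (0.46). All values in this paragraph are log2 fold changes that passed edgeR's test at 0.05.

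Genes of the cell cycle were called higher in 21 of 22 cases and lower in 1 in the MitoPositive culture samples, and the share of cycling cells, counted as cells with UMIs of 3 or more cell cycle genes, was 17.9 to 26.1% against 8.62 to 14.6%. After each cell was thinned to 2000 UMIs, and with 2 or more genes counted, the shares were 17.7 to 20.3% and 15.04 to 18.4%. Within the culture samples all 10 genes had a higher level in cycling cells than in the other cells of the same sample, in 6 of 6 samples each, with median ratios from 1.39 for S100a11 to 2.45 for Anxa2. Cycling cells were also deeper, with sample medians of 8101 to 14244 UMIs against 4993 to 7227. Without the cycling cells 6 of the 7 genes were still called (all but Anxa2), and Capg had a log2 fold change of 0.83. Among markers of other cell types in culture, the 12 myeloid markers summed to 1.78 to 5.38 CPM, the 14 stromal markers to 0.78 to 2.40 CPM, the 9 melanoma markers to group medians of 12.7 (MitoPositive) and 14.6 CPM (MitoNegative), and the 7 B cell markers to 134 to 245 CPM. The B cell sum was lower or overlapping in MitoPositive samples (134 to 191 against 182 to 245 CPM), and its part in the results was not tested. Leaving out every cell with 1 UMI of such a marker left shallower cells, with medians of 2100 to 4431 UMIs, and then 0 of 10 genes were called (3 at an unadjusted p under 0.05, as were 9.52% of all genes). Leaving out single samples gave 5 to 9 calls. The lowest count came without the MitoNegative sample of donor 2, where S100a6 and Anxa2 were lost.

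**Figure D2:**
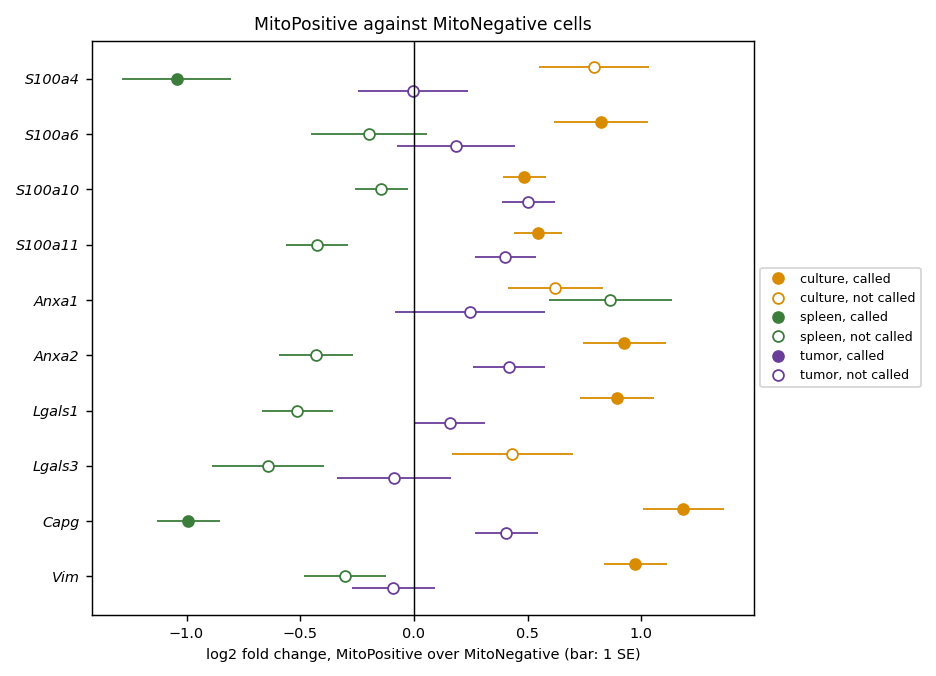
Log2 fold changes of MitoPositive over MitoNegative samples (x axis, bars 1 SE) in culture, spleen and tumor for each gene, with filled points for genes called by edgeR at 0.05. The culture points lie right of 0, and in the spleen all but Anxa1 lie left of it, with S100a4 and Capg called.

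At d7 the same contrast was made in the spleen. There 2 of the 10 genes, S100a4 and Capg, were lower in MitoPositive samples, with ratios of 0.485 and 0.503, and none was higher; of all 11992 genes tested, 1.88% were called lower, 0.876% higher and 2.76% in either direction. S100a4 stood at 1951, 1260 and 1553 CPM in MitoPositive and at 3592, 3514 and 2833 CPM in MitoNegative spleen samples, for donors 1, 2 and 3. The log2 fold change was -1.04 (SE 0.24, edgeR adjusted p = 0.040). Capg stood at 202, 133 and 164 CPM against 369, 294 and 333 CPM, a log2 fold change of -0.99 (SE 0.14, edgeR adjusted p = 0.0068). For both genes every MitoPositive sample lay below every MitoNegative one. Both calls were lost without the donor 1 library (edgeR adjusted p = 0.20 for S100a4 and 0.17 for Capg, with log2 fold changes of -1.14 and -1.08). The call of S100a4 was also lost without the donor 2 library (edgeR adjusted p = 0.087). Of all genes none was called without the donor 1 library and 74 were without the donor 2 library, against 331 with all donors.

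A further 4 genes had arms that did not overlap in the spleen, with MitoPositive samples lower, and did not pass the adjusted threshold. With S100a4 and Capg this made 6 of the 10 genes, where 13.6% of all genes tested had MitoPositive samples entirely lower and 5.76% entirely higher. Lgals1 was at 2104, 1695 and 2344 CPM against 3451, 2967 and 2367 CPM (log2 fold change -0.51, SE 0.16, edgeR adjusted p = 0.11). S100a11 was at 685, 509 and 606 CPM against 850, 830 and 749 CPM (log2 fold change -0.43, SE 0.14, edgeR adjusted p = 0.13). Lgals3 was at 545, 294 and 612 CPM against 865, 728 and 627 CPM (log2 fold change -0.64, SE 0.25, edgeR adjusted p = 0.22). For Lgals1 and Lgals3 the gap came down to the donor 3 samples, which were nearly level. Anxa2 was at 264, 197 and 241 CPM against 350, 328 and 266 CPM (edgeR adjusted p = 0.21). S100a6, S100a10 and Vim had overlapping arms and log2 fold changes of -0.20, -0.14 and -0.30. In all, 7 of the 10 genes had an unadjusted p under 0.05, as had 15.3% of all genes.

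Anxa1 went the other way in the spleen, although it was not called. It was at 57.7, 27.7 and 71.1 CPM in MitoPositive and at 22.8, 26.1 and 25.7 CPM in MitoNegative samples (log2 fold change 0.86, SE 0.27, edgeR adjusted p = 0.12). The MitoPositive samples of donors 1 and 3 were above all MitoNegative ones by a wide margin, and that of donor 2 lay just above them. Without the donor 2 library Anxa1 was called (log2 fold change 1.36, edgeR adjusted p = 0.044).

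In the same contrast Anxa5, a phosphatidylserine-binding annexin, was lower in MitoPositive spleen samples (log2 fold change -0.50), and so were the actin gene Actg1 (-0.50), the actin-severing Cfl1 (-0.42) and Havcr2 (-1.46), the gene of the receptor Tim-3. Zeb2 (1.89), Cx3cr1 (1.57) and Ly6c2 (0.59), genes known from effector and effector memory cells, were higher, as was Satb1 (1.27). All passed edgeR's test at 0.05. Cell cycle genes were called lower in 12 of 22 cases. Cycling cells made up 7.50 to 10.2% of MitoPositive and 17.97 to 36.1% of MitoNegative spleen cells. In the spleen the ratio of cycling to other cells was above 1 in 6 of 6 samples for Anxa2, Lgals1 and Vim and in 0 of 6 for S100a6. For the called genes it was above 1 in 4 of 6 samples (S100a4, median 1.03) and in 5 of 6 (Capg, median 1.16). Without cycling cells S100a4 and Capg were still called, with log2 fold changes of -1.01 and -1.02 (edgeR adjusted p = 0.0043 and 0.00388). Among markers of other cells, the myeloid sum was 104 to 770 CPM in MitoPositive and 99.2 to 208 CPM in MitoNegative spleen samples, highest in the MitoPositive sample of donor 3, and the B cell sum was 99.0 to 1648 and 173 to 3688 CPM. Without the clusters led by genes of such cells, S100a4, S100a11, Lgals3 and Capg were called. In that setting 856 of all genes were called, against 331 with these clusters kept.

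In the tumor 0 of the 10 genes were called between the arms by edgeR, and 0 by DESeq2, with 4 at an unadjusted p under 0.05 (13.3% of all genes); 0.4% of all genes were called. The estimates with the smallest p-values were all above 0. S100a10 was at 1161, 1281 and 1238 CPM in MitoPositive and at 967, 996 and 781 CPM in MitoNegative tumor samples (log2 fold change 0.50, SE 0.12, edgeR adjusted p = 0.094). S100a11 was at 602, 711 and 650 CPM against 510, 600 and 456 CPM (log2 fold change 0.40, SE 0.14), and Anxa2 at 610, 840 and 713 CPM against 606, 526 and 578 CPM (0.42, SE 0.16). Capg was at 262, 289 and 276 CPM against 244, 192 and 228 CPM (log2 fold change 0.41, SE 0.14). These were the 4 genes whose arms did not overlap, where 6.61% of all genes had MitoPositive samples entirely higher. S100a4, at 866, 733 and 742 CPM against 512, 1185 and 755 CPM, and S100a6, at 1076, 1213 and 1296 CPM against 1007, 1839 and 634 CPM, had wide MitoNegative samples on both sides of the MitoPositive ones. The remaining members, Lgals1 (log2 fold change 0.16, SE 0.16), Lgals3 (-0.09, SE 0.25), Vim (-0.09, SE 0.18) and Anxa1 (0.25, SE 0.33), were not called either. The MitoNegative tumor samples held 30 to 116 cells. Their melanoma markers summed to 6.04 to 1592 CPM, against 1.58 to 61.3 CPM in MitoPositive tumor samples, and whether tumor cell RNA had a part in these levels was not tested.

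The spleen and tumor samples of the same recipients showed which of the genes went with the organ. In MitoPositive cells 8 of 10 genes differed, 2 higher and 6 lower in the tumor, where 53.2% of all genes were called (26.7% higher, 26.5% lower). In MitoNegative cells 9 of 10 differed, 1 higher and 8 lower, where 42.5% were called (19.7% higher, 22.7% lower). Anxa2 was higher in the tumor in both arms. The spleen values given above, 264, 197 and 241 CPM in MitoPositive samples, stood against 610, 840 and 713 CPM in the tumor, a 3.41-fold difference (log2 fold change 1.77, SE 0.17, edgeR adjusted p = 5.8e-06). In MitoNegative samples the difference was 1.89-fold (log2 0.92, SE 0.16, edgeR adjusted p = 6.7e-04). No tumor sample overlapped a spleen sample of its arm.

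S100a4, S100a6, S100a10, Lgals3 and Vim were lower in the tumor in both arms. S100a6 fell by 1.27 (SE 0.26) on the log2 scale in MitoPositive and by 1.66 (SE 0.26) in MitoNegative cells (edgeR adjusted p = 0.0014 and 3.6e-04). S100a4 fell by 0.91 (SE 0.24) and by 1.95 (SE 0.25), with edgeR adjusted p = 0.0068 and 6.7e-05. Lgals3 went from 545, 294 and 612 CPM in the spleen to 256, 228 and 200 CPM in the tumor of the MitoPositive arm (log2 fold change -0.93, SE 0.25, edgeR adjusted p = 0.0077). In the MitoNegative arm it went from 865, 728 and 627 to 214, 328 and 210 CPM (log2 fold change -1.48, SE 0.25, edgeR adjusted p = 6.1e-04). S100a4, S100a6 and Lgals3 did not overlap between organs in either arm. S100a10 differed by -0.38 (SE 0.12) and -1.03 (SE 0.12) and Vim by -0.48 (SE 0.18) and -0.69 (SE 0.18), in MitoPositive and MitoNegative cells. Anxa1 was lower in the tumor in MitoPositive cells (log2 fold change -0.77, SE 0.28, edgeR adjusted p = 0.034) and was not called in MitoNegative cells (-0.15, SE 0.33, edgeR adjusted p = 0.76).

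Capg was called in opposite directions in the 2 arms, the only one of the 10 genes for which that was so. It was higher in the tumor in MitoPositive cells (log2 fold change 0.88, SE 0.14, edgeR adjusted p = 2.5e-04) and lower in MitoNegative cells (-0.52, SE 0.14, edgeR adjusted p = 0.0094). The first call held under all 14 alternatives and the second under 7 of 14. The second was lost without the donor 2 or the donor 3 library (edgeR adjusted p = 0.055 and 0.060), with HTODemux, after thinning with or without cycling cells, and without cycling or marker-carrying cells, with log2 fold changes of -0.50 to -0.13. The difference of these differences was 1.40 (SE 0.20) and did not pass the threshold (edgeR adjusted p = 0.057); it had the smallest p-value of all 11992 genes. In that interaction 0 of the 10 genes and 0% of all genes were called by edgeR, 6 of the 10 had an unadjusted p under 0.05 (13.2% of all genes), and DESeq2 called 2, S100a11 and Capg. The other 5 estimates of these 6 were 1.04 for S100a4, 0.85 for Anxa2, 0.83 for S100a11, 0.67 for Lgals1 and 0.65 for S100a10. The remaining 4 were 0.38 for S100a6, 0.55 for Lgals3, 0.21 for Vim and -0.62 for Anxa1. S100a11 and Lgals1 were lower in the tumor in MitoNegative cells (-0.57 and -0.78, edgeR adjusted p = 0.0050 and 0.0017) and not called in MitoPositive cells (0.25 and -0.11).

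Cycling cells made up 44.2 to 61.3% of MitoPositive tumor cells, above the spleen range of that arm given earlier, and 24.7 to 69.8% of MitoNegative tumor cells, which overlapped with the spleen. In cells thinned to 2000 UMIs, with 2 or more genes counted, the shares were 31.5 to 37.3% in the tumor and 6.12 to 8.21% in the spleen for MitoPositive samples, and 13.1 to 48.3% and 15.1 to 29.9% for MitoNegative ones. Of 22 cell cycle genes, 17 were called higher in the tumor and 0 lower in MitoPositive cells, and 0 higher and 1 lower in MitoNegative cells. In tumor samples Anxa2 and Lgals1 had a higher level in cycling than in other cells in 6 of 6 samples, and S100a6 and Lgals3 in 0 of 6, with median ratios of 1.502, 1.57, 0.55 and 0.50. Without cycling cells, a fit that left out the MitoNegative tumor sample of donor 1 because 18 of its cells remained, only Anxa2 and Capg of the 8 genes were called between organs in MitoPositive cells, and 7 genes in MitoNegative cells, where Anxa2 and Capg were lost (edgeR adjusted p = 0.076 and 0.20). Without the donor 1 library 4 genes were called in MitoPositive cells, S100a4, S100a6, Anxa2 and Capg.

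**Figure D3:**
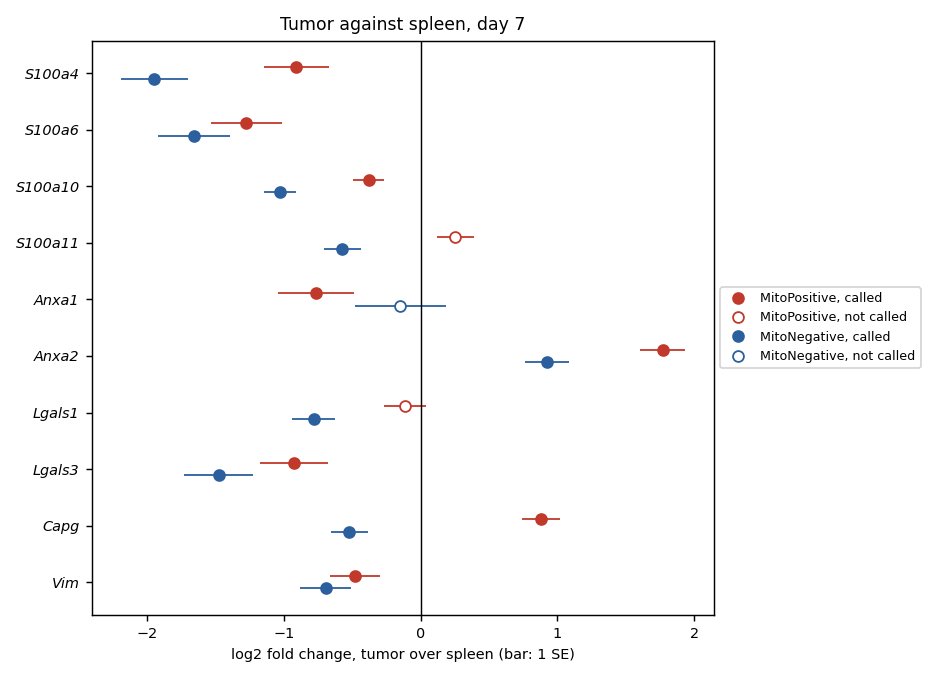
Log2 fold changes of tumor over spleen at d7 (x axis, bars 1 SE) for MitoPositive (red) and MitoNegative (blue) cells, filled where edgeR called the gene at 0.05. Anxa2 lies right of 0 in both arms, most genes lie left of it, and Capg lies on opposite sides.

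In the organ comparison 0 of 4 other S100 genes tested were called higher and 2 lower in MitoPositive cells, and 1 and 1 in MitoNegative cells. Of 6 other annexins 0 were higher and 2 lower in each arm, and of 6 other galectins 1 was higher and 3 lower in each arm. Of 4 partner genes of annexins and S100 proteins 1 was higher and 2 lower in MitoPositive cells, and 1 and 3 in MitoNegative cells. S100a13, of the same chromosome 3 cluster as S100a4 and S100a6, was lower in the tumor in both arms (log2 fold changes -0.50 in MitoPositive and -1.20 in MitoNegative cells). Anxa6 (-0.90 and -1.15), Anxa11 (-0.63 and -0.996), Lgals8 (-1.43 and -1.38), Lgals9 (-0.54 and -1.10) and Ahnak (-1.18 and -1.14) were lower as well. Lgals7, the higher galectin, had 2.22 and 2.12, and S100a1 was higher in MitoNegative cells (1.46). Cacybp, the gene of a protein that binds calcyclin, the product of S100a6, was higher (0.95 and 0.98). Among receptors and glycoproteins bound by galectins, Lag3 was higher (2.15 and 1.97) and Cd7 lower (-3.78 and -4.30). Each of these values passed edgeR's test at 0.05.

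The spleen samples were also set against the culture samples, where day, tissue and library cannot be told apart. All 10 genes were higher in the spleen, in MitoPositive cells (44.5% of 12832 genes called, 23% higher and 21.4% lower) and in MitoNegative cells (60.4% called, 32.4% higher and 28% lower). Lgals3 and S100a4 had the largest differences. Lgals3 was 20.3-fold higher in MitoPositive and 43.9-fold higher in MitoNegative cells (log2 fold changes 4.34, SE 0.32, and 5.46, SE 0.33, edgeR adjusted p = 2.8e-08 and 1.1e-09). S100a4 was 7.80-fold and 28.3-fold higher (2.96, SE 0.30, and 4.82, SE 0.33, edgeR adjusted p = 9.1e-07 and 3.5e-09). For both genes the lowest spleen sample was several times the highest culture sample. Capg rose by 1.68 and 3.87, Anxa2 by 1.35 and 2.73, Lgals1 by 1.11 and 2.54 and S100a6 by 1.19 and 2.23 on the log2 scale. The smallest differences were those of S100a10 (0.38 and 1.03), Vim (0.52 and 1.81), S100a11 (0.60 and 1.60) and Anxa1 (0.83 and 0.64), the last at the threshold in MitoNegative cells (edgeR adjusted p = 0.05). All 12 effector companion genes rose in both arms too. Without the donor 1 library 5 genes were called in MitoPositive cells, among them S100a4 and Lgals3. The myeloid markers, at 1.78 to 5.38 CPM in culture, were at 99.2 to 770 CPM in the spleen, and their part in these differences was not tested. Under the extraction protocol's hashtag map 10 and 9 genes were called, Anxa1 being lost in MitoNegative cells. As these 2 comparisons enter the following one, they are not independent of it.

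Because a shift of a whole library cancels in it, the difference between the arms was compared between d7 spleen and culture. It was lower in the spleen for 7 of the 10 genes and higher for none, where 9.23% of all genes were called, 6.6% lower and 2.63% higher; the median of the 10 genes was -1.21, against -0.01 over all genes. Capg had a log2 difference of -2.20 (SE 0.25, edgeR adjusted p = 1.0e-04), S100a4 of -1.86 (SE 0.41, adjusted p = 0.0076) and Lgals1 of -1.43 (SE 0.26, adjusted p = 0.0022). Anxa2 had -1.39 (SE 0.29, edgeR adjusted p = 0.0052), Vim -1.30 (SE 0.26, adjusted p = 0.0042), S100a11 -0.996 (SE 0.19, adjusted p = 0.0030) and S100a10 -0.65 (SE 0.17, adjusted p = 0.020). These values rest on the culture hashtags as the deposited list gives them. Under the extraction protocol's map 0 of the 10 genes were called (1 at an unadjusted p under 0.05). Of all genes 21 were called under that map, against 1184 under the list. With that map Capg had -0.93 (edgeR adjusted p = 0.60), S100a4 -0.70 and Lgals1 -0.35. S100a6 (-1.05) and Lgals3 (-1.12) were not called (edgeR adjusted p = 0.11 and 0.12), nor was Anxa1 (0.19, SE 0.38, adjusted p = 0.83). Of the 10 genes Capg alone was called without the donor 2 library, where 307 of all genes were. Without cells that carried a UMI of another cell type's marker, S100a4 and Capg were called. Related lists had 10 of 19 genes of actin and the cortex lower, among them Actg1 (-0.97), Actb (-0.80), Pfn1 (-0.70) and Coro1a (-0.69), and 21 of 22 cell cycle genes lower, while 7 of 12 quiescence and homing genes were higher, among them Klf3 (2.48).

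Cells were clustered per day without the 10 genes, so that the levels of the genes across clusters could be read. In culture the clusters led by Klf2 and Dapl1 (cluster 2) and by genes that include Klf3 and Klf2 (cluster 3) had the lowest levels of most of the 10 genes. S100a4 was at 19.7 and 12.3 CPM there, S100a6 at 184 and 111 CPM and Lgals1 at 309 and 198 CPM. Klf2 is a transcription factor known to keep T cells quiescent. Cluster 4, led by Mt1 and Gzma with Cxcr6, had S100a6 at 2449 CPM and S100a10 at 2045 CPM. Cluster 5, led by Samd3, Itga1 and Klrc1, had the highest S100a4 (449 CPM), Anxa1 (60.7 CPM) and Lgals3 (76.9 CPM), and cluster 6, led by histone and mitosis genes, the highest Anxa2 (197 CPM), Vim (900 CPM) and Lgals1 (1684 CPM).

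At d7 cluster 0, led by Cd7 and Id3, had S100a4 at 3752 CPM and Lgals3 at 893 CPM, and cluster 4, led by Gzma and Cx3cr1, had them at 2961 and 991 CPM. Cluster 1, led by Art2b with Bcl2, the gene of a survival protein, had S100a4 at 497 CPM, Lgals3 at 44.4 CPM and Capg at 37.8 CPM. The clusters of the tumor differed from these. Cluster 2, led by Nrgn and Gzmc, had Anxa2 at 836 CPM and S100a6 at 953 CPM, and cluster 5, led by Ifng and Ccl4, had them at 394 and 2234 CPM. Among the 12 d7 clusters kept, cluster 2 had the highest Anxa2 and cluster 4 the highest Anxa1 (94.4 CPM). Cluster 11, led by Igfbp4 and Pdlim4 with Cd4, had the lowest S100a4 (131 CPM) and Anxa2 (27.7 CPM). Cluster 7, led by Slc40a1 and C1qa, and cluster 10, led by immunoglobulin genes, have leading genes known from macrophages and B cells, although a Cd3 UMI was found in 85.5 and 68.8% of their cells, and had S100a4 at 1990 and 1339 CPM, below cluster 0. Cluster 12, led by the neutrophil genes S100a9 and S100a8, was left out of the sums. No cluster was given a cell type name, and no test was made between clusters.

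**Figure D4:**
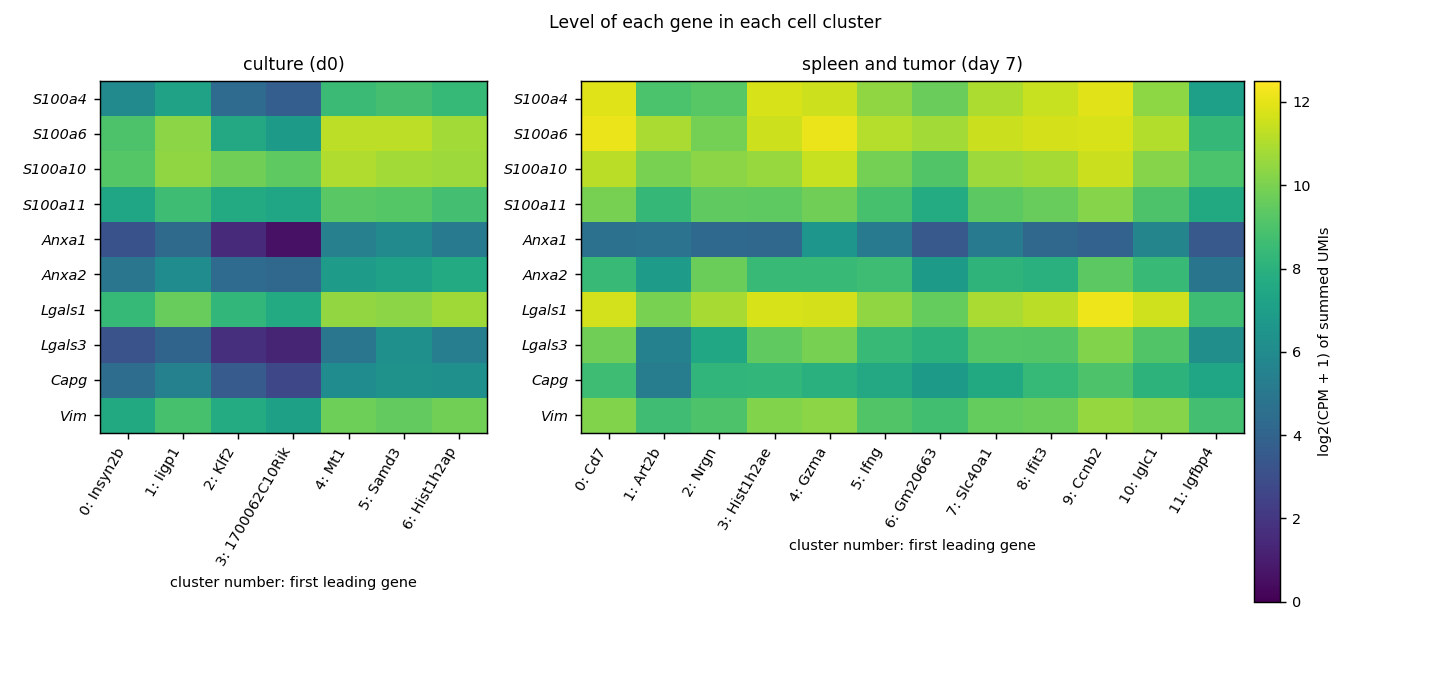
Level of each gene (rows) in each cell cluster (columns, number and first leading gene) as log2(CPM + 1) of summed UMIs, for culture and for spleen and tumor together. In culture, clusters 2 and 3 are darkest for S100a4, S100a6, Lgals3 and Capg; at d7, clusters 1 and 11 have low S100a4, and cluster 2 has the brightest Anxa2.

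Culture clusters were compared between arms with the same cells split by cluster. In the 6 culture clusters with 20 or more cells in each sample, 4 to 8 of the 10 genes had MitoPositive samples entirely above MitoNegative ones and 0 had them entirely below. Of all 11436 genes tested in culture, 7.19, 6.98, 4.14, 5.33, 8.07 and 7.9% had MitoPositive samples entirely above in clusters 0 to 5, where 8, 8, 7, 5, 4 and 6 of the 10 genes did. In cluster 3, where levels were lowest, Vim was at 181 to 236 CPM in MitoPositive and 92.9 to 128 CPM in MitoNegative samples, a ratio of means of 1.91. In cluster 5 Vim was at 911 to 933 CPM against 492 to 624 CPM, a ratio of 1.72, whereas S100a6 had overlapping arms (ratio 0.98). Lgals1 had ratios of 1.26 to 1.79 over the 6 clusters.

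In the spleen only the samples of donors 1 and 2 of the MitoPositive arm had 20 or more cells in a cluster, so these are 2 values against 2 or 3 and no test was made, of the arms or of a difference between clusters. In cluster 0, the largest cluster of MitoNegative spleen cells, 7 of 10 genes were entirely lower in MitoPositive samples, as were 14.8% of the 11992 genes tested at d7. S100a4 was at 2492 and 2002 CPM there, against 4127, 4223 and 3818 CPM in MitoNegative samples of donors 1, 2 and 3. Clusters 6 (a cluster of low depth) and 8 (led by the interferon-induced Ifit3 and Rsad2) had 9 genes entirely lower each, against 17.8 and 12.4% of all genes. In cluster 7 all 10 genes had overlapping arms, where 8.46% of all genes were entirely lower. Genes at 0 in a sample of each arm count as overlapping, and among genes with a mean of at least 100 CPM the shares entirely lower in clusters 0, 6, 7 and 8 were 14.8, 21.3, 7.16 and 22.1%. In clusters 1 and 4, the largest clusters of MitoPositive spleen cells, no gene was entirely lower and 2 and 3 genes were entirely higher, against 7.47 and 19.4% of all genes. S100a4 was at 585 and 477 CPM against 395, 664 and 278 CPM in cluster 1, and at 3481 and 2673 CPM against 2388 and 2843 CPM in cluster 4. Capg had a ratio of means of 0.84, 0.63 and 0.93 in clusters 0, 1 and 4. S100a4 had ratios of 0.55, 1.19 and 1.18 there. The arms also differed in how many of their spleen cells lay in these clusters. Cluster 0 held 12.2 to 20.4% of cells in MitoPositive and 49.8 to 55.1% in MitoNegative samples. Cluster 1 held 28.6 to 41.6% and 3.07 to 13.8%, and cluster 4 held 21.1 to 32.7% and 1.34 to 6.40%. The part of these shares in the summed spleen levels was not tested.

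**Figure D5:**
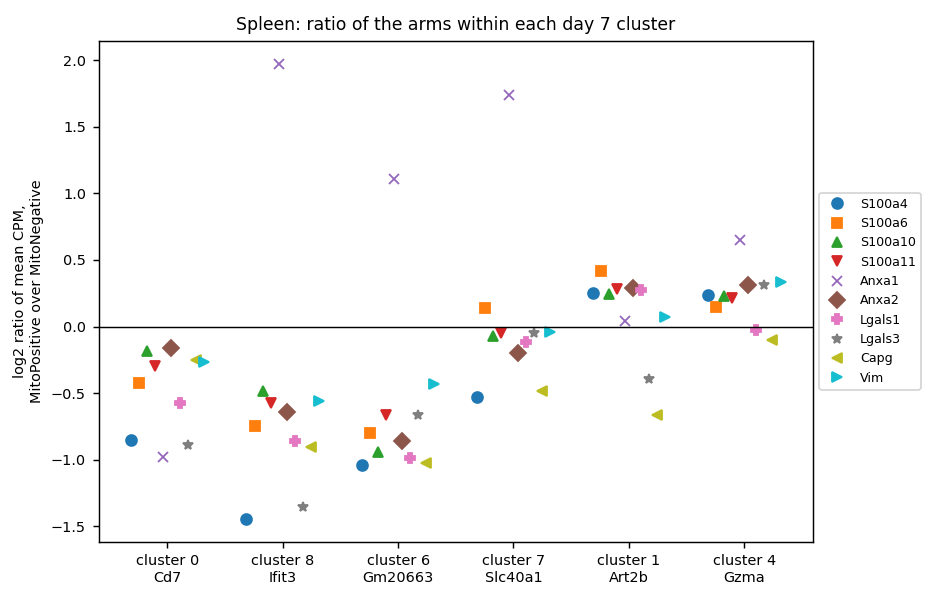
Log2 ratio of mean CPM of MitoPositive over MitoNegative spleen samples (y axis) within 6 d7 clusters (x axis, number and first leading gene), 1 symbol per gene, from samples with 20 or more cells. In clusters 0, 8 and 6 most genes lie below 0, and in clusters 1 and 4 most lie above it; Anxa1 has few UMIs and wide ratios.

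The share of cells with a UMI was read after each cell was thinned to 2000 UMIs, and it did not always follow the summed levels. S100a4 was found in 9.75 to 13.4% of MitoNegative and 11.4 to 21.1% of MitoPositive culture cells, and in 74.4 to 91.7% and 53.1 to 72.6% of spleen cells. In the tumor the shares were 43.3 to 67.9% and 59.2 to 61.0%. The MitoPositive tumor shares thus lay within the spleen range of that arm, although the summed S100a4 level was lower in the tumor. For Lgals1 the MitoPositive median share was 90.9% in the tumor and 83.7% in the spleen, with mean levels of 1729 and 2048 CPM. Lgals3 was found in 1.67 to 3.77% of culture cells over both arms and in 30.1 to 69.9% of spleen cells. Before thinning, the spleen shares of Lgals3 were 40.5 to 57.1% in MitoPositive and 69.1 to 82.8% in MitoNegative samples. No cell type known to lack these genes was at hand. The lowest culture cluster for S100a4, cluster 3 with a median of 8309 UMIs per cell, had a UMI in 2.65% of thinned cells for S100a4 and in 0.156% for Lgals3.

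The genes whose level over the 18 samples was most like that of a member were named by Pearson's r of log2 CPM among 12822 genes; the samples fall into 6 groups and share donors and libraries, so r mostly describes group means. F730043M19Rik, Cdc42 and Abracl were most like S100a4 (r = 0.97 each). Cdc42 codes for a small GTPase of the actin cytoskeleton. S100a13, from the same chromosome 3 cluster but with other S100 genes in between, was most like S100a6 (0.95), followed by Csk and Plcd1 (0.94 each). Cfl1, the actin-severing cofilin, was most like Lgals1 (0.97), followed by Prdx4 and Reep5 (0.96 each). Etfb, Acot7 and Sec61g were most like Anxa2 (0.99), and Cmpk1, Crybg2 and Arpc2 most like Vim (0.94, 0.93 and 0.92).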

How the data were processed

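Single-cell 3' RNA-seq with hashtags (10x) was available as 4 libraries. The deposited matrices are raw UMI counts per gene, hashtag and barcode; per the file headers they were written by Cell Ranger 7.0.0, and the submitters' processing notes name Seurat 4.0.5 and mm10 (GRCm38). Groups and donors came from the deposited hashtag list. Of 18092 barcodes, those with at least 500 genes and under 15% mitochondrial UMIs were kept, and assigned to their highest hashtag if it had at least 10 UMIs and 3 times the next. Other barcodes, doublets of hashtags included, were left out, and no other doublet caller was run. Cells were clustered per day without the 10 genes (scanpy 1.11.5, leidenalg 0.10.2, 2000 variable genes, 30 components, resolution 0.5), and 1 cluster with fewer than 50% of cells positive for a Cd3 gene was left out.

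For each hashtagged sample with 20 cells or more the UMIs of its cells were added up; CPM scale these sums to 1000000 gene UMIs. After filterByExpr and TMM scaling, tests used edgeR 4.0.16 (quasi-likelihood, Benjamini-Hochberg, threshold 0.05): the 6 culture samples without a block, the 12 d7 samples in 1 fit with the library (donor) as a block, and contrasts across days in a fit of all 18 with the block at d7. The 18 samples come from 3 donor mice with 1 sample each in every group, so samples are separate donors only within a group. The hashtag list pairs samples by donor; deviations from group means correlated at 0.07 to 0.24 within donors between the culture arms, -0.07 to -0.05 between the spleen arms, -0.08 to 0.14 between the tumor arms and 0.04 to 0.20 between organs. The fits were also run on simulated counts with known differences, the same spread for every gene and no donor effect. These settings differ from the data, so no conclusion on the results is drawn from that run.

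The members and lists were chosen with earlier results of these data known. The rule for named genes was all 10 members and, of related lists, at most 4 genes called per comparison, by smallest p. Alternatives were DESeq2 1.42.0, its size factors, no filter, HTODemux (Seurat 5.3.0), the other hashtag map, the block, single samples or donors left out, one organ alone, thinning to 2000 UMIs, cells without a marker UMI of another type, non-cycling cells and cells with a UMI of Trbv14, a T cell receptor variable gene. HTODemux, a second hashtag caller, matched the rule used for 93.2% of culture barcodes kept. For the libraries of donors 1, 2 and 3 the shares were 35.6, 44.4 and 94.4%. In donors 1 and 2 it left 59.8 and 57.6% unassigned or as doublets, against 5.35 and 3.14% unassigned by the rule used. With it 59 genes were called between the spleen arms, against 331, S100a4 and Capg among them. Which caller was closer to the truth was not tested. Chosen after seeing the data were 3: leaving out clusters led by other cell types, thinned cells without cycling ones, and the other hashtag map for comparisons of spleen with culture.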

Additional observations from a re-analysis of the deposited data

Results flagged for a closer look

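For 7 of the 10 genes the difference between MitoPositive and MitoNegative samples was not the same in the d7 spleen as in culture, by a test of the difference itself (edgeR's quasi-likelihood test, adjusted over all genes). The log2 values, spleen minus culture, were -1.86 for S100a4, -0.65 for S100a10, -0.996 for S100a11, -1.39 for Anxa2, -1.43 for Lgals1, -2.20 for Capg and -1.30 for Vim. Over all genes 9.23% were called. Without the donor 2 library 1 of the 7 calls was left, Capg, and under the extraction protocol's map of the culture hashtags 0 were. In these 2 settings 307 and 21 of all genes were called, against 1184 in the main fit.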

How the results depend on the processing

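Over 1300 values of single genes under the alternatives, 1141 kept their side of the threshold, 89 lost it and 62 passed it. A further 8 reversed in direction while called in the main fit or in the alternative. Changes of direction in genes called in neither fit are counted among the 1141. Culture S100a4 and Lgals3, for example, had 0.79 and 0.43 in the main fit and -0.35 and -0.57 at the lowest. In culture, 7 of 10 genes were called (1059 of all genes). Under the other hashtag map 0 were called, and none of all genes was. Without cells carrying another type's marker 0 were called (78 of all genes), and with the replicate block 10 (2295 of all genes). When single samples were left out 5 to 9 were called (495 to 1542 of all genes). Under the other map S100a6 had -0.26, S100a10 -0.043, S100a11 -0.085, Anxa2 -0.21, Lgals1 -0.16, Capg -0.065 and Vim -0.074. In the spleen, 2 genes were called (331 of all genes), against 7 with no filter (840 of all genes). After thinning 4 were called (576 of all genes), and 5 in thinned cells without cycling ones (317 of all genes). In Trbv14 cells 4 were called (637 of all genes), and 4 without clusters led by other types (856 of all genes). With a donor left out 0 to 4 were called (0 to 924 of all genes). In the tumor, 0 were called, against 1 with no filter, 2 without cycling cells and 1 in thinned cells without cycling ones, and 0 to 0 with a donor left out. Between organs in MitoPositive cells, 8 were called, against 2 without cycling cells, where Anxa1 turned to 0.15, 5 without marker-carrying cells, 5 in thinned cells without cycling ones and 4 to 8 with a donor left out, and in MitoNegative cells 9, against 6 with HTODemux. For the arm difference in tumor minus spleen, 0 were called, against 2 with DESeq2, 6 with no filter, 4 without cycling cells, 2 in thinned cells without cycling ones, 1 in Trbv14 cells, 2 without clusters led by other types and 0 to 2 with a donor left out. For spleen minus culture, 7 were called (1184 of all genes), against 0 under the other hashtag map (21 of all genes). Without marker-carrying cells 2 were called (623 of all genes), and with a donor left out 1 to 9 (302 to 1232 of all genes). For MitoPositive spleen against culture 10 were called, against 5 to 10 with a donor left out. The cause of these moves was not tested.

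With no replicate block at d7 no count of the 10 genes moved by more than 1. Over all genes, calls were 1059 in culture (0 to 2295 under the alternatives), 331 in the spleen (0 to 924), 48 in the tumor (0 to 851), 6384 (2960 to 6807) and 5092 (1533 to 5377) between organs in MitoPositive and MitoNegative cells, 0 for tumor minus spleen (0 to 817), 1184 for spleen minus culture (21 to 1672), and 5707 (2690 to 6184) and 7748 (5084 to 7860) for spleen against culture. DESeq2's size factors shifted the median of the 10 genes' changes by -0.113 in tumor minus spleen, and changed the share of higher calls from 47.9 to 28.2% in the tumor and from 28.5 to 40.3% for spleen minus culture. Fits left out 2 samples in Trbv14 cells (the MitoPositive spleen sample of donor 3 and the MitoNegative tumor sample of donor 1) and the latter alone without cycling or marker-carrying cells, since under 20 cells remained.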
